A study of Homo sapiens with 4 samples.

Results

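ZEB2, TRIB2, TNP1 and PTH2R are the protein-coding genes of chromosome 2 with the most mitotic GATA2 peaks, 5 each, and their peaks are described here by position, grouping, neighbouring non-coding genes, width and GATA sequence. They were chosen by their number of mitotic peaks in these data, so that number describes them and was given no test. A peak was a member when its nearest protein-coding transcription start site (TSS, of any annotated transcript) belonged to 1 of these 4 genes, which gave 20 of the 1648 mitotic peaks and 134 of the 31777 asynchronous peaks. The data came from chromatin immunoprecipitation sequencing of endogenous GATA2 in K562, a human chronic myeloid leukaemia cell line that grows in suspension. There was 1 GATA2 library of asynchronous cells, which are mostly in interphase, and 1 of mitotic cells, held before division by nocodazole, sorted as MPM-2 positive over several rounds and pooled. Both kinds of cells were fixed with disuccinimidyl glutarate and then formaldehyde, and the sorted cells kept a minority of asynchronous cells. With no replicate in either condition, intervals below cover counting error over peaks only, and a peak missing from the mitotic list may lie under that library's limit of detection.

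GATA2 is a zinc-finger transcription factor that binds the sequence WGATAR, a GATA with A or T before it and A or G after it, and is needed for the formation and maintenance of haematopoietic stem cells. Most transcription factors leave the chromosomes when a cell divides and transcription largely stops. A factor that stays on some of its interphase sites is said to bookmark them, and an asynchronous peak that shared at least 1 base with a mitotic peak is called bookmarked here. The 4 genes have different functions. ZEB2 encodes a zinc-finger homeobox repressor that binds E-boxes and acts in epithelial-mesenchymal transition and in blood cell differentiation. TRIB2 encodes a Tribbles pseudokinase that promotes the degradation of C/EBPα and can drive acute myeloid leukaemia. TNP1 encodes transition protein 1, which replaces histones in maturing spermatids, and PTH2R encodes a G protein-coupled receptor of the parathyroid hormone receptor family.

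The reference sequences of 10 of the 20 mitotic peaks are given first, because they hold the GATA sites that the positions below refer to. They are the closely spaced trios of TRIB2 and PTH2R, the outermost peaks of TNP1, and the innermost peak of ZEB2 together with the first of its peaks inside a non-coding gene. All are written 5′ to 3′ on the plus strand of hg38, in capitals where WGATAR matched on either strand, so a match on the minus strand reads as its reverse complement. Matches were taken without overlap. In peak 2 of PTH2R a CTATCA that overlaps the last TTATCT is therefore neither marked nor counted. Peaks are numbered along the chromosome within each gene. The ZEB2 peaks shown are chr2:144580744-144580892 and chr2:144848452-144848728. Those of TRIB2 are chr2:12434706-12434900, chr2:12441980-12442148 and chr2:12451733-12451972. Those of TNP1 are chr2:216789132-216789411 and chr2:217218829-217219087, and those of PTH2R are chr2:208542122-208542315, chr2:208556949-208557160 and chr2:208571795-208571990.
ZEB2 mitotic peak 1: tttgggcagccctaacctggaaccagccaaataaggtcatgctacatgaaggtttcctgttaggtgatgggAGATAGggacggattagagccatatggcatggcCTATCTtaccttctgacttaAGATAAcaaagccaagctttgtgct
ZEB2 mitotic peak 4: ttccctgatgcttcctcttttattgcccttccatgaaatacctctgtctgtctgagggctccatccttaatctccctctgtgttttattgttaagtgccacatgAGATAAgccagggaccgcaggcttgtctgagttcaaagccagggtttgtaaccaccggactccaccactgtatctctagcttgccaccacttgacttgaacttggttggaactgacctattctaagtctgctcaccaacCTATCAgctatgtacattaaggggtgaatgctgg
TRIB2 mitotic peak 2: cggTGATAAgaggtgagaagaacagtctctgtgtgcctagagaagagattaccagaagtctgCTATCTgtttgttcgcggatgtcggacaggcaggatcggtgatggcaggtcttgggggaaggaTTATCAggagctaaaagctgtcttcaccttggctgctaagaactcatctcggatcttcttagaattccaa
TRIB2 mitotic peak 3: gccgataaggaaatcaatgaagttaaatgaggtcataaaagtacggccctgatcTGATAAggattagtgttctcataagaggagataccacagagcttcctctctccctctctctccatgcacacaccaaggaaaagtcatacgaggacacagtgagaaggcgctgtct
TRIB2 mitotic peak 4: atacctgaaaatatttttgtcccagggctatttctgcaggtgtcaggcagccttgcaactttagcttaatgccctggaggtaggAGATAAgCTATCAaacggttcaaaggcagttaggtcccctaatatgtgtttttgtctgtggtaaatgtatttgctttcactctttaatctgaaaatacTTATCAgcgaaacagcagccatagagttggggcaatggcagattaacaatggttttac
TNP1 mitotic peak 1: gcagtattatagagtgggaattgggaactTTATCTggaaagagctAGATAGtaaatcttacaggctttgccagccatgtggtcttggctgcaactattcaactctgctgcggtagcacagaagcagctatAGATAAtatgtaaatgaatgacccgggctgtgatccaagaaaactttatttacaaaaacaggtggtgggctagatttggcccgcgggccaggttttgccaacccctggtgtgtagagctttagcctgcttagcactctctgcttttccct
TNP1 mitotic peak 5: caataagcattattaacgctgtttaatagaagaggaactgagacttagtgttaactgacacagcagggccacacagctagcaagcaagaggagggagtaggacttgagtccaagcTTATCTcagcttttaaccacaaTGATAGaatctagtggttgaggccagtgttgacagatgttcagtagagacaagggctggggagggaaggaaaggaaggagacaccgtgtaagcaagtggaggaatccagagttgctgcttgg
PTH2R mitotic peak 2: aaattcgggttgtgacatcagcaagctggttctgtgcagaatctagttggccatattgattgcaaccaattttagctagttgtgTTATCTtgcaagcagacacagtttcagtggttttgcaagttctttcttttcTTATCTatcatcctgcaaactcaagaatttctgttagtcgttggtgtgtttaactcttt
PTH2R mitotic peak 3: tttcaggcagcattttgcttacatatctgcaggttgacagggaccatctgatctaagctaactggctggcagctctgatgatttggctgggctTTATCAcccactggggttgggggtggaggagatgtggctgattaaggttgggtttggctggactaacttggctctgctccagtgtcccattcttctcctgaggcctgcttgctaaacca
PTH2R mitotic peak 4: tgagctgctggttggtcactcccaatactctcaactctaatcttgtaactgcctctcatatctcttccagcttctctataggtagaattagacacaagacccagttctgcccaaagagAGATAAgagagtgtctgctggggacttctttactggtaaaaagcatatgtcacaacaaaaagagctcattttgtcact

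Each gene reached the same mitotic count from a different number of asynchronous peaks. TNP1 was nearest to 45 asynchronous peaks, ZEB2 to 36, PTH2R to 27 and TRIB2 to 26, and in each gene 5 of them were bookmarked. The bookmarked share was 11.1% for TNP1 (95% exact binomial interval 3.71% to 24.1%), 13.9% for ZEB2 (4.67% to 29.5%), 18.5% for PTH2R (6.30% to 38.1%) and 19.2% for TRIB2 (6.55% to 39.4%). The genes were chosen with 5 mitotic peaks each, and each of these overlapped 1 asynchronous peak. The order of the shares therefore only restates the asynchronous counts, and no order is read from it. Over the 4 genes 20 of 134 asynchronous peaks were bookmarked, or 14.9% (9.36% to 22.1%), against 5.04% of all asynchronous peaks and 6.65% of those on chromosome 2. The mitotic count chose the genes, so nothing is read from the distance to 5.04%. Across the genome 5 protein-coding genes had 5 mitotic peaks, the other being ZFPM2 on chromosome 8, which encodes a GATA cofactor. No gene had more, 7 had 4 and 47 had 3. Just outside the chosen number on chromosome 2 were IKZF2 and LPIN1 with 4 mitotic peaks each, then ABCB11, ANXA4 and ASIC4 among the 8 genes with 3. Elsewhere, JARID2 had 4. Of the relatives of the 4 genes, TRIB1 had 1 mitotic peak among 6 asynchronous peaks, and ZEB1, TRIB3, TNP2 and PTH1R had none, with 2, 2, 0 and 1 asynchronous peaks.

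All 4 genes lie in long stretches without another protein-coding TSS. The bases whose nearest coding TSS is that of ZEB2 span 1.82 Mb between GTDC1 and ACVR2A, rank 141 of 20007 gene names by length. The stretch of TRIB2, between LPIN1 and LRATD1, spans 1.41 Mb (rank 228), that of PTH2R, between PIKFYVE and MAP2, 0.784 Mb (rank 667), and that of TNP1, between IGFBP5 and TNS1, 0.557 Mb (rank 1090). The median over all genes was 55.5 kb. Length was not the same as density: TNP1, the shortest stretch of the 4, held 80.7 asynchronous and 8.97 mitotic peaks per Mb, and PTH2R held 34.4 and 6.38. ZEB2 and TRIB2 held 19.8 and 18.5 asynchronous peaks per Mb with 2.75 and 3.56 mitotic peaks, while the whole genome held 10.3 and 0.534. The genes were chosen by an equal mitotic count, so their mitotic densities only restate the stretch lengths. Nothing is read from the distance of these densities to 0.534. Peaks of a longer stretch are given to 1 gene by construction, and its part in the counts was not tested.

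**Figure D1:**
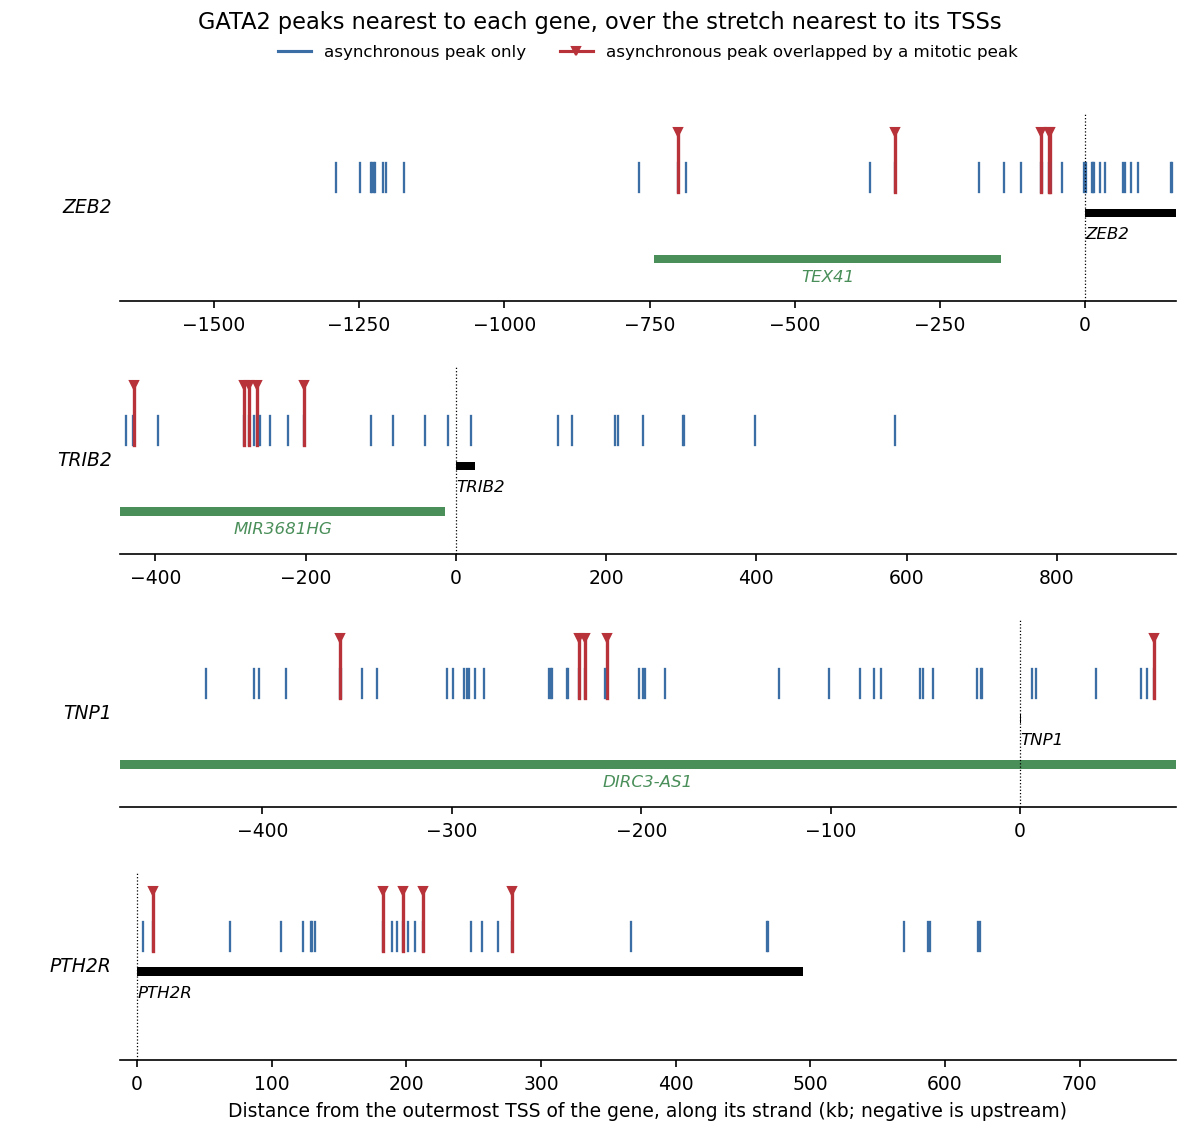
Asynchronous GATA2 peaks (vertical lines, drawn at their midpoints) along the stretch nearest to each gene, in kb from the outermost TSS of the gene along its strand, on a separate scale for each row. Red lines with a triangle are the 5 peaks per gene that a mitotic peak overlapped. Black bars are the gene, and green bars the long non-coding gene that holds some of the mitotic peaks. In each row 3 of the red lines form a trio when neighbours at most 50 kb apart are joined.

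The mitotic peaks stood far from the promoters of the genes they were given to. For ZEB2 (ENSG00000169554, minus strand, 144364364 to 144521057) all 5 lay upstream, at 59687, 61645, 75075, 327395 and 700052 bp from its outermost TSS. For TRIB2 (ENSG00000071575, plus strand, 12716910 to 12742734) all 5 also lay upstream, between 201795 and 428553 bp away. For TNP1 (ENSG00000118245, minus strand, 216859458 to 216860064) 1 lay 70653 bp downstream and 4 lay 217754 to 358765 bp upstream. The peaks of PTH2R (ENSG00000144407, plus strand, 208359714 to 208854503) lay 11494 to 149035 bp downstream of the nearest of its 4 TSSs, a range that overlapped those of ZEB2 and TNP1. None of the 20 lay within 3 kb of a coding TSS (exact binomial interval up to 16.8%), against 18.9% of the other 1628 mitotic peaks (17.0% to 20.9%). Beyond 50 kb from any coding TSS lay 19 of the 20, or 95.0% (75.1% to 99.9%), against 25% (22.9% to 27.2%) of the others. The median distance was 209774.5 bp against 16350 bp. The nearest-TSS rule gives distant peaks to genes with long stretches, so this difference and the choice of the genes cannot be told apart.

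Promoter-proximal GATA2 peaks existed at 2 of the 4 genes in asynchronous cells. ZEB2 had 8 asynchronous peaks within 3 kb of its 46 annotated TSSs, including a peak of 233 bp over an internal TSS and a peak of 815 bp, without a WGATAR match, that lay 1775 bp upstream of the outermost TSS. PTH2R had 3, all around its TSS at 208489086. Of these 11, 0 were bookmarked, against 302 of the 6812 asynchronous peaks within 3 kb of any coding TSS, and a difference from that share was not detectable with 11 peaks. At TRIB2 and TNP1 the closest asynchronous peaks were 10781 and 6039 bp from a TSS of the gene.

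The mitotic peaks were unevenly spaced. When neighbours at most 50 kb apart were joined, each gene had 3 groups, a trio and 2 single peaks, 12 groups in all. This pattern depends on the setting. At 10 kb only TRIB2 kept 3 groups, and the 5 peaks of PTH2R all stood apart. At 100 kb TRIB2 and PTH2R had 2 groups each. The trio of ZEB2 covered the 3 peaks closest to the gene, with 1809 and 12847 bp between them. The next peaks followed after gaps of 251936 and 372380 bp. In TRIB2 the trio stood in the middle, with gaps of 7079 and 9584 bp inside it and 146348 and 62777 bp on either side. The trio of TNP1 had inner gaps of 11675 and 2225 bp and outer gaps of 288406 and 125796 bp. That of PTH2R had inner gaps of 14633 and 14634 bp and outer gaps of 170704 and 66130 bp. From the first to the last mitotic peak the 4 genes spanned 640713 bp (ZEB2), 429956 bp (TNP1), 267122 bp (PTH2R) and 226990 bp (TRIB2). Between the outer mitotic peaks lay 39 asynchronous peaks of TNP1, 16 of PTH2R, 10 of ZEB2 and 8 of TRIB2. In each gene 3 of these were bookmarked, a number fixed by the choice of genes with 5 mitotic peaks.

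Long non-coding RNA (lncRNA) genes covered most of these sites. In GENCODE release 44, 12 of the 20 mitotic peaks lay inside a lncRNA gene, or 60% (36.1% to 80.9%), against 19.0% (17.1% to 21.0%) of the other mitotic peaks. Another 5 lay inside a protein-coding gene, 25% (8.66% to 49.1%) against 53.4% (50.9% to 55.8%), and 3 in neither. None of the 20 touched an exon of any transcript of the gene that held it. The asynchronous peaks of the 4 genes had a similar makeup: 89 of 134 lay inside a lncRNA gene, or 66.4% (57.8% to 74.3%), against 18.1% of all asynchronous peaks. Within the 4 genes the lncRNA share was thus 60% for mitotic peaks and 67.5% (58.1% to 76.0%) for peaks that were asynchronous only, with overlapping intervals. By gene, 5 mitotic peaks of TRIB2, 5 of TNP1, 2 of ZEB2 and 0 of PTH2R lay inside a lncRNA gene. Peaks of a gene thus largely shared their status, and intervals that treat peaks as independent may be too narrow. The difference from the other peaks and the choice of the genes cannot be told apart.

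All 5 mitotic peaks of TRIB2 lay in introns of MIR3681HG (ENSG00000224184, plus strand, 11833926 to 12702913), the host gene of a microRNA, which runs towards TRIB2 and ends before it. The first was in intron 3 of the canonical transcript and the other 4 in intron 4. The body of MIR3681HG held 34 asynchronous and 9 mitotic peaks, since the 4 mitotic peaks given to its other coding neighbour, LPIN1, also lay inside it. No other lncRNA gene of the 18866 annotated held as many mitotic peaks, and MIR3681HG is 869 kb long. Of its 9 mitotic peaks, 5 are those that chose TRIB2, so nothing is read from this rank. The only other annotated gene between the outer peaks was RNU6-843P, a U6 small nuclear RNA copy, whose start lay 23205 bp from peak 2 of TRIB2. The nearest start of any gene was that of MIR3681HG itself for peak 1, at 7244 bp, and that of the lncRNA gene ENSG00000223360 for peak 5, at 83872 bp.

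TNP1, a gene of 607 bp, lies inside a lncRNA gene, DIRC3-AS1 (ENSG00000233143, plus strand, 216694404 to 217336120), together with all 5 of its mitotic and all 45 of its asynchronous peaks. Peak 1 was in intron 2 of the canonical DIRC3-AS1 transcript and peaks 2 to 5 were in intron 3, which only 2 of the 19 annotated transcripts span at these peaks. DIRC3-AS1 held 50 asynchronous peaks in all and was next after MIR3681HG among lncRNA genes by mitotic peaks. Its mitotic peaks are the 5 that chose TNP1, so nothing is read from this rank either. Between the outer peaks lay 9 annotated genes, 6 of them lncRNA genes. ENSG00000287498 had the nearest start for the trio, at 13000, 25119 and 27905 bp. An alternative start of DIRC3-AS1 lay 4663 bp from peak 5, and the pseudogene RPL31P14 started 2988 bp from peak 1, the shortest distance of any of the 20 peaks to an annotated start.

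Of the mitotic peaks of ZEB2, 3 lay between annotated genes and 2 inside a lncRNA gene. Peaks 1 to 3 lay in no annotated gene, with the nearest start at LINC02993 for peaks 1 and 2 (56093 and 58051 bp) and at TEX41 for peak 3 (69797 bp). Peaks 4 and 5 lay in TEX41 (ENSG00000226674, plus strand, 144666312 to 145262988), a lncRNA gene with 189 annotated transcripts that runs away from ZEB2 on the opposite strand. Peak 4 was in intron 3 of its canonical transcript, and peak 5 lay beyond that transcript, in the span of 2 of the 189. The nearest starts were those of LINC01966 for peak 4, at 33305 bp, and of TEX41 for peak 5, at 32036 bp. TEX41 held 5 asynchronous peaks, of which these 2 were bookmarked. The remaining genes between the outer peaks were ENSG00000234940, a small miscellaneous RNA (ENSG00000276706) and the pseudogene SGCEP1. Farther upstream, 7 asynchronous peaks within ENSG00000286225 were 197 to 943 bp wide. Of these 7, 0 were bookmarked, which does not set them apart from the 5.04% of all asynchronous peaks.

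PTH2R was the exception, with all 5 mitotic peaks inside its own annotated body and none inside a lncRNA gene. The annotation of that body is uneven. The canonical receptor transcript runs from 208406792 to 208494506 and held none of the 5. Peak 1 lay in an intron of a transcript that starts farther upstream, at 208359714. Peaks 2 to 5 lay in introns of another transcript of 7 exons, from 208489086 to 208840100, beyond the 3′ end of the canonical one. No protein-coding gene of 20033 held more mitotic peaks in its body, and 1 other held as many. The body is 495 kb long, and these 5 peaks chose the gene, so nothing is read from this rank. A lncRNA gene, ENSG00000231896 (208469850 to 208540413), ended just before peak 2 and held 4 asynchronous peaks of PTH2R. The pseudogenes ARPC1BP1 and ENSG00000232409 had the nearest starts, at 9839 bp for peak 1 and 25214 to 121213 bp for peaks 2 to 5.

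The peak lists give no height or score, so width is the only measure of size, and the bookmarked peaks of the 4 genes were wide without being the widest. The bookmarked peaks of ZEB2 were 460, 745, 604, 593 and 597 bp wide, ranks 17, 6, 10, 12 and 11 among its 36. Those of TRIB2 were 755, 738, 663, 755 and 596 bp wide, ranks 7 to 11 of 26. Those of TNP1 were 616, 798, 692, 590 and 481 bp wide, ranks 7, 4, 6, 9 and 20 of 45, and those of PTH2R 856, 789, 764, 795 and 590 bp wide, ranks 2, 4, 5, 3 and 9 of 27. In each gene the widest asynchronous peak had no mitotic counterpart. It measured 1204 bp in ZEB2, where it lay inside the gene with 8 WGATAR matches, and 1106 bp with 7 matches in PTH2R. In TRIB2 it measured 1054 bp with 3 matches and in TNP1 996 bp with 8. The median width was 677.5 bp for the 20 bookmarked peaks and 400.5 bp for the 114 that were asynchronous only, beside 674 and 367 bp over all peaks of each kind. No peak below the median width of the asynchronous list, 378 bp, was bookmarked among the 52 of the 4 genes, and 63 of 15844 were over all genes. Among the 31 peaks of the 4 genes in the widest decile, from 681 bp up, 10 were bookmarked, against 786 of all 3193 peaks of that decile (24.6%). The mitotic count chose the genes, so nothing is read from this difference.

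The mitotic peaks themselves varied in width within and between the genes. Those of PTH2R were 210, 194, 212, 196 and 209 bp wide and those of TRIB2 232, 195, 169, 240 and 366 bp, whereas those of ZEB2 were 149, 583, 384, 277 and 348 bp and those of TNP1 280, 444, 561, 310 and 259 bp. PTH2R and TRIB2 had a joint median of 209.5 bp and ZEB2 and TNP1 of 329 bp, and the ranges overlapped. As a ratio of widths, the mitotic peaks of PTH2R were 24.5% to 35.4% as wide as their asynchronous peak, those of TRIB2 25.5% to 61.4%, those of TNP1 45.5% to 81.1% and those of ZEB2 32.4% to 78.3%. Of the 20, 19 lay wholly inside the asynchronous peak, the exception being peak 3 of TNP1, so that its ratio of 81.1% is not the part of the asynchronous peak it covered. All 20 overlapped an asynchronous peak, as did 1606 of the 1648 mitotic peaks.

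Every one of the 20 mitotic peaks held at least 1 WGATAR match, a share of 100% (83.2% to 100%) against 95.6% (94.5% to 96.5%) of the other mitotic peaks. Of the 40 width-matched windows that lay 5 kb beyond either edge of the 20 peaks, 19 held a match, or 47.5% (31.5% to 63.9%). Counted without overlap, the 20 peaks together held 45 matches, a mean of 2.25 ± 1.07 (SD over peaks) against 2.42 ± 1.67 in the other mitotic peaks. The other mitotic peaks tended to be wider: their median was 298 bp, and that of the 20 peaks was 249.5 bp. Scaled to length the order was reversed, at 7.73 matches per kb in the 20 peaks and 7.49 in the others. No order is therefore read from the means per peak. ZEB2 and TNP1 had 13 matches each, TRIB2 11 and PTH2R 8. The most in a single peak was 5, in peak 5 of ZEB2, and 6 of the 20 peaks held a single match. At least 2 matches were found in 70.0% (45.7% to 88.1%) against 74.1% (71.9% to 76.3%) of the others, so no difference in GATA content was detectable. On the strand that matched, 21 of the 45 read AGATAA, 10 TGATAA, 8 AGATAG and 6 TGATAG, and 21 lay on the plus and 24 on the minus strand. In 16 of the 20 peaks a match lay within 50 bp of the peak's midpoint, as did 25 of the 45 matches. That window covers much of a narrow peak, and no such share is given for the other mitotic peaks. No centring of the matches is therefore read from this.

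Neighbouring matches within a peak, counted without overlap, were 1 to 283 bases apart, with a median of 53 over 25 pairs. The closest pair stood in peak 4 of TRIB2, printed above, where AGATAA on the plus strand and TGATAG on the minus strand had 1 base between them. In peak 3 of TNP1, 2 matches on the plus strand had 3 bases between them, and in peak 1 of TNP1 and peak 5 of TRIB2 a pair had 10. Peak 1 of ZEB2, also printed above, held 3 matches in 149 bp. A CTG and a GATAA separated by 8 bases, the composite element at which GATA factors bind DNA together with E-box proteins such as TAL1, occurred in 1 of the 20 peaks, or 5.00% (0.127% to 24.9%), against 13.2% (11.6% to 14.9%) of the other mitotic peaks. That copy, in peak 5 of TRIB2 from 12514954 to 12514969, read as follows on the plus strand, with the CTG and the GATAA in capitals.
composite of TRIB2 mitotic peak 5: CTGctgaatgaGATAA

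Other motif strings, searched on both strands, were present in few of these peaks. The RUNX string AACCACA was present in 2 of the 20 peaks (10.0%, 1.23% to 31.7%), peak 2 of ZEB2 and peak 5 of TNP1, against 13.2% of the other mitotic peaks. The ETS string AGGAAGT was present in 3 (15.0%, 3.21% to 37.9%), peaks 3 and 5 of ZEB2 and peak 4 of TNP1, against 14.2%. The AP-1 string TGACTCA or TGAGTCA was present in 2, peak 3 of ZEB2 and peak 5 of PTH2R, against 11.7%. The E-box CAGCTG was present in 3, peak 2 of ZEB2, peak 2 of TNP1 and peak 5 of PTH2R, against 23.6%. With 20 peaks, differences from these shares were not detectable. The mitotic peaks of TRIB2 held none of these 4 strings.

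Within the 4 genes, bookmarked asynchronous peaks held a mean of 3.25 ± 1.52 WGATAR matches and asynchronous-only peaks 2.61 ± 2.08. When the latter were limited to the 62 at or above the median width, their mean was 3.26 ± 2.06, no lower than in the bookmarked peaks. The composite was found in 11 of the 114 asynchronous-only peaks (9.65%, 4.92% to 16.6%) and in 1 of the 20 bookmarked ones (5.00%, 0.127% to 24.9%). Over all genes the order was the other way, with 8.15% of asynchronous-only and 16.1% of bookmarked peaks, and the intervals of the 4 genes include these shares. GC content was 44.2% ± 3.56 in the 20 mitotic peaks, with a range of 38.1% to 51.4%, and 46.4% ± 6.98 in the other mitotic peaks. Over the full width of the asynchronous peaks, the RUNX string was present in 7 of the 20 bookmarked peaks (35%, 15.4% to 59.2%) and in 13 of the 114 others (11.4%, 6.21% to 18.7%). The intervals overlap, which is no test of a difference, and the difference was not tested. Over all genes the shares with the RUNX string were 20.4% and 13.2%, both within the intervals of the 4 genes, and bookmarked peaks were wider.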

How the data were processed

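The authors aligned reads to hg38 with BWA 0.7.12, kept uniquely mapped reads and called peaks with MACS2 2.1.0 and Genrich 0.6.1. They then dropped blacklisted regions. How both callers and the inputs were combined is not given in the sources used here. The deposited values are peak positions in bp, in 3 columns without score or height, so library depth is unknown. The input libraries were not analysed here.

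Positions were printed from base 1 and set against GRCh38 with GENCODE release 44, and no peak passed a chromosome end. Distances ran from the peak edge to the nearest TSS. Motifs were counted in the reference sequence as strings, WGATAR without overlap. Intervals are exact binomial at 95%. No test was made, since each condition has 1 library. The genes, lists and settings were chosen with earlier results of these data known. The named genes were the members, the next genes by mitotic count, relatives, flanking coding genes, and non-coding genes holding or starting nearest to a mitotic peak, and 1 gene of this rule is not reported here. The steps were tested on simulated data. Scripts ran in Python 3.11.15 with pysam 0.24.0, numpy 2.4.6 and scipy 1.17.1, and figures were drawn with matplotlib 3.10.9.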

Additional observations from a re-analysis of the deposited data

How the results depend on the processing

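Of 51 alternatives to 15 results, 32 left the value within 1.5 times, its interval or its SD, and 19 moved it. The gene assignment mattered most. With TSSs of non-coding genes and pseudogenes included in the nearest-TSS search, none of the 4 genes kept a mitotic peak (0 each), asynchronous peaks fell to 9 for ZEB2, 8 for PTH2R and 0 for TRIB2 and TNP1, and the bookmarked share was 0 of 17. Counting peaks within 10 kb of the gene body left PTH2R with 5 mitotic peaks and the other genes with 0, and left 13 asynchronous peaks for ZEB2, 1 for TRIB2 and 2 for TNP1. The bookmarked share was 5.97% with reciprocal overlap of at least 50%, against 2.02% of all asynchronous peaks, and 24.4% among peaks at or above the median width, against 9.65%. Nothing is read from these differences either, because the mitotic count chose the genes. The mean number of matches was 1.05 with AGATAA alone, against 1.22 over all mitotic peaks. Of the 12 peaks inside lncRNA genes, 0 lay in an exon or within 3 kb of a lncRNA TSS. Joining peaks at 10 kb gave 16 groups, 4 for ZEB2, 3 for TRIB2, 4 for TNP1 and 5 for PTH2R. At 100 kb there were 10, in the same order 3, 2, 3 and 2.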
